A study of Mus musculus with 3 samples.

Results

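The constitutive proteasome subunit genes were followed in 3 mammary tumours of female WAP-SVT/t transgenic NMRI mice, 1 array per tumour. Members were all genes whose symbol starts with Psma, Psmb, Psmc or Psmd followed by a digit, read from probe sets annotated to exactly 1 gene, without the immune genes Psmb8, Psmb9 and Psmb10. This gave 36 of the 12393 genes on the array. Of these, 15 encode subunits of the core particle, 17 encode subunits of the regulatory particle and 3 (Psmd5, Psmd9 and Psmd10) encode chaperones that help to build its base. The last, Psmc3ip, carries a proteasome-derived name but encodes a recombination protein, so it was counted among the members of the rule but in no group of subunits. Of the core genes, Psma8 encodes a form known from the testis. The label of constitutive subunits therefore held for 31 of the 36 genes.

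All 3 tumours arose in mice that make the SV40 T and t antigens, viral proteins that disable cellular growth control, in the mammary epithelium, where the promoter of Wap, a milk protein gene, drives the transgene. Tumours 1 and 2 share the first number of their titles and tumour 3 has another, and the sources used here give neither the meaning of the numbers nor the age of the mice. Whether tumours 1 and 2 came from 1 animal is therefore unknown. The design text asks how alike human and mouse mammary tumours are in gene expression. No normal gland and no human tumour was analysed here, so every comparison below is between the 3 tumours, with no test between them, and the number of arrays limits the precision.

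The proteasome is the protease that degrades proteins tagged with ubiquitin. Its barrel-shaped core is built of outer alpha rings, which form the gate, and inner beta rings, which hold the proteolytic sites. The regulatory particle caps the barrel: the ring of ATPases in its base unfolds substrates and opens the gate, non-ATPase base subunits receive ubiquitin chains, and the lid removes them. Since each subunit is needed in a fixed number of copies, and transcription factors such as NFE2L1 act on many subunit genes together, these genes are known for coordinated expression, and dividing cells depend on them.

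Levels are given as log2(intensity + 50) of quantile normalized arrays. Fold differences are on that scale, which understates differences of dim genes, and intensities are those deposited. Levels of different genes come from different probe sets and were not compared; each gene was compared with itself between tumours. A gene passed the low-signal floor when its mean log2 level reached the median of all probe sets, 7.40. Median intensities of the arrays before normalization were 111 to 120. Control probe sets for 18S ribosomal RNA set the array of tumour 3 apart. In tumours 1, 2 and 3 the 5′ part read 5398, 4615 and 563 and the middle part 9856, 9311 and 400. The 3′ part went the other way, at 2697, 1833 and 7147. The ratio of 3′ to 5′ signal was 0.809 to 1.21 for Gapdh and 1.04 to 1.26 for beta-actin. The part of RNA quality in the results for tumour 3 was not tested. All 9 luminal epithelial markers passed the floor, among them Krt8 at 12.48, 12.59 and 12.13 and Epcam at 12.08, 12.69 and 12.46. Of the 9, 4, 4 and 1 were highest in tumours 1, 2 and 3 (30.4%, 39.1% and 30.2% of all genes past the floor). In the same tumours 2, 2 and 5 were lowest (28.5%, 27.1% and 44.1%). In whole tumour tissue, fewer cells of a type and less RNA per cell cannot be told apart.

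Of the members, 35 passed the floor. The exception was Psma8, whose product replaces another alpha subunit in the testis, which had 11, 21 and 9 as its intensities in tumours 1, 2 and 3. The core subunit gene Psmb11, known from the thymus, was not analysed here.

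Constitutive subunit genes were expressed in all 3 tumours and differed modestly between them, and nearly all were lower in tumour 2 than in tumour 1. Tumour 1 was above tumour 2 in 29 of the 31 core and regulatory particle genes past the floor, against 45.7% of all 6951 genes past it, with a median difference of 1.31-fold. Over all genes the median of tumour 1 relative to tumour 2 was 0.968-fold. Tumour 2 was lowest in 18 of the 31 genes (27.1% of all genes) and highest in 1 (39.1% of all genes), the ATPase gene Psmc6. The core held most of those lows, with 10 of its 14 genes lowest in tumour 2 and 4 in tumour 3. In the regulatory particle 8 of 17 were lowest in each of these tumours. Over all genes 27.1% were lowest in tumour 2 and 44.1% in tumour 3.

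Tumour 3 was divided: it was highest in 12 of the 31 genes (30.2% of all genes) and lowest in 12 (44.1%). Tumour 1 was highest in 18 (30.4%) and lowest in 1 (28.5%), the lid gene Psmd12. The median gene of these 31 ranged over 0.53 (log2) between its highest and lowest tumour, against 0.66 for all genes. Ranges ran from 0.08 for Psmb1 to 1.64 for Psmd7.

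At least 2-fold differences were seen in 3 of 35 members (24.8% of all genes), Psma7, Psmb3 and Psmd7, and at least 1.5-fold differences in 13 of 35 (57.1% of all genes). All 3 wide members were lowest in tumour 2. Over pairs of tumours fewer genes pass any fold, and the 2-fold count was 3, 0 and 2 without tumours 1, 2 and 3, where the share of all genes was 15.9%, 13% and 8.38%. The 1.5-fold count was 7, 6 and 7 (39.2%, 34.4% and 26.2% of all genes). Among all 35 members tumour 2 was lowest in 21 and tumour 3 in 12; with the deposited values left unnormalized these counts were 23 and 9, and with array medians subtracted 25 and 8.

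Markers of other cell types also set these tumours apart. Of all genes past the floor, 39.1% were highest in tumour 2, 30.2% highest in tumour 3 and 27.1% lowest in tumour 2. Fibroblast and matrix markers were highest in tumour 2 in 7 of 10 genes (summed intensity 16684, 22946 and 13991) and endothelial markers in 6 of 7 (821, 1145 and 558, with 3 of 7 past the floor). Adipocyte markers were highest in tumour 3 in 6 of 6 (1123, 1225 and 7298, with 4 of 6 past the floor). Skeletal muscle markers were lowest in tumour 2 in 5 of 5 (287, 105 and 543, with 1 of 5 past the floor). No gene of these lists was listed at 0 in every tumour, and the part of these cells in the subunit values was not tested.

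**Figure D1:**
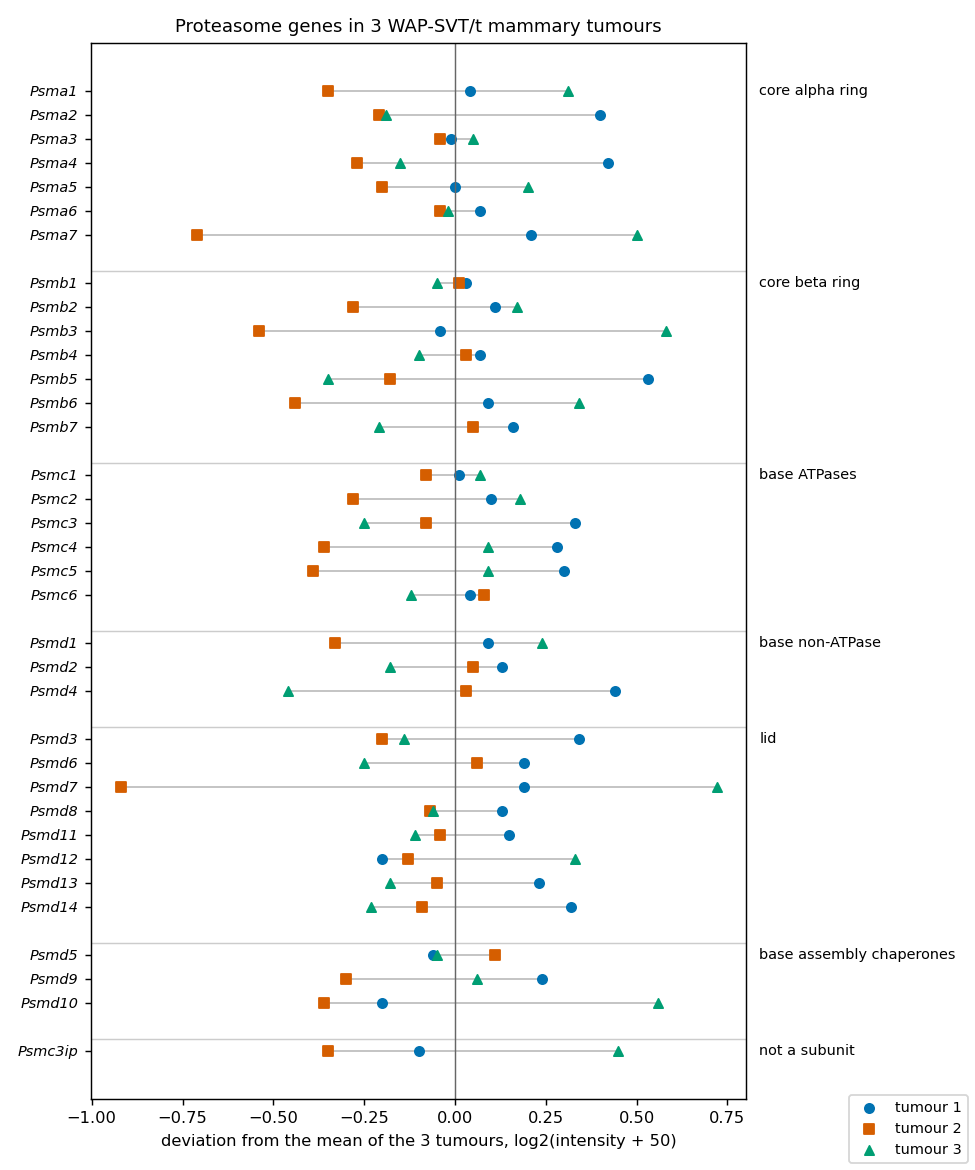
Deviation of each gene's log2(intensity + 50) from the mean of the 3 tumours (x axis), for the 35 members past the low-signal floor, grouped by role; circles are tumour 1, squares tumour 2, triangles tumour 3, and each grey line spans the range. Squares of tumour 2 lie at the left end of 21 genes, and the widest spans are those of Psmd7, Psma7 and Psmb3.

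All 7 alpha ring genes past the floor were lowest in tumour 2, and their median deviation from the mean over tumours, called the shift, was 0.07, -0.21 and 0.05 (log2) in tumours 1, 2 and 3. Psma7 had the widest span, at 1286, 702 and 1702 in intensity in tumours 1, 2 and 3. Its log2 level was 10.22 ± 0.64 (SD, n = 3), and tumour 3 was 2.32-fold above tumour 2. A second probe set of Psma7 read 1413, 696 and 1546, so tumour 2 was again the low tumour and tumours 1 and 3 were close. Psma4, whose product helps to form the gate, had intensities of 2725, 1714 and 1996 (11.08 ± 0.37), with tumour 1 above the other two by at least 1.48-fold. Psma1 had intensities of 1725, 1342 and 2283 (10.79 ± 0.34), with tumour 3 highest. The ring was thus not uniform: beside the low tumour 2, Psma1, Psma3, Psma5 and Psma7 were highest in tumour 3 and Psma2, Psma4 and Psma6 in tumour 1. Psma3 differed least, at 11.58, 11.55 and 11.64. The order of the tumours in Psma3 and Psma6, with ranges of 0.09 and 0.11 (log2), rested on very small differences. In Psma2 tumour 2 was only 0.02 (log2) below tumour 3. A further probe set past the floor was lowest in tumour 3 for Psma5 and in tumour 2 for Psma6.

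In the beta ring, 3 of 7 genes were lowest in tumour 2 and 4 in tumour 3. Psmb3, a structural subunit gene, had intensities of 1340, 975 and 2270 (10.53 ± 0.56), tumour 3 being 2.17-fold above tumour 2, and its second probe set (1365, 750 and 2136) gave 2.68-fold. The 3 genes of the proteolytic subunits did not share an order. Psmb5, of the chymotrypsin-like site, had intensities of 2951, 1803 and 1677 (11.06 ± 0.47), with tumour 1 1.63-fold above tumour 2 and 1.85-fold above tumour 3. Psmb6, of the caspase-like site, had 2098, 1478 and 2754 (11.02 ± 0.40) and was 1.72-fold higher in tumour 3 than in tumour 2. Psmb7, of the trypsin-like site, had 5102, 4535 and 4301 (12.20 ± 0.19), a range of 1.29-fold. Psmb5 thus had its low values in both tumours 2 and 3, Psmb6 in tumour 2 alone. The structural subunit genes Psmb1 and Psmb4 differed by 1.06-fold and 1.12-fold, and Psmb2, highest in tumour 3, by 1.37-fold. The order in Psmb1 was not stable: tumour 1 minus tumour 3 was 0.08 (log2), and -0.06 with the values as deposited.

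The promoters of Psmb5 and Psmb6 are shown because these catalytic genes, which differed in order, both held the core letters of the antioxidant response element, TGACNNNGC, to which NFE2L1 and NFE2L2 bind with small MAF partners. Sequences are from RefSeq, build GRCm38.p6, written along the gene's own strand and ending at or before the start of the gene, with the match in capitals. The Psmb5 match began 47 bases before the gene start (chr14:54618014-54618062, minus strand), and the Psmb6 match began 9 bases before it (chr11:70525328-70525356, plus strand). The match of the chaperone gene Psmd9 began 31 bases before its start (chr5:123228139-123228187, plus strand).
Psmb5: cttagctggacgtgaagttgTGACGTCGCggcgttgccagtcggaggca
Psmb6: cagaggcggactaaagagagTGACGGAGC
Psmd9: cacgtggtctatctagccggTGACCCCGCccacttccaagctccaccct

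Promoter sequences, from 250 bases before to 50 after the gene start, were matched for 29 of the 36 members. On either strand, TGACNNNGC was found in 5 of the 29 (17.2%), and the other holders were Psmc6 and Psmd12. Among all genes on the array past the floor with a promoter sequence the share was also 17.2% (980 of 5698), the same as among the members. Of the 5 genes, Psmb6 and Psmd9 were lowest in tumour 2, Psmb5 and Psmc6 in tumour 3 and Psmd12 in tumour 1.

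The 6 ATPase genes of the base had median shifts of 0.19, -0.18 and 0.08 (log2) in tumours 1, 2 and 3, and 4 of them were lowest in tumour 2. Psmc5 had intensities of 1758, 1117 and 1611 (10.56 ± 0.35) and Psmc4 had 1273, 845 and 1188 (10.14 ± 0.33). In both genes tumour 2 lay below the other two, by 1.61-fold and 1.56-fold at most. Psmc3 had intensities of 2175, 1649 and 1540 (10.84 ± 0.30), with tumour 1 above both others. Psmc1 differed least, with 840, 828 and 926, a range of 1.11-fold. Psmc6 (1660, 1735 and 1580) was the only core or regulatory particle gene highest in tumour 2, by 0.04 (log2) over tumour 1, and with array medians subtracted tumour 1 was the higher. Psmc2 was highest in tumour 3, with a range of 1.37-fold.

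The 3 non-ATPase base genes differed in their order. Psmd4, whose product is a receptor for ubiquitin chains, had intensities of 2170, 1651 and 1216 (10.73 ± 0.45), highest in tumour 1 and 1.86-fold lower in tumour 3. Its place in tumour 3 depended on the probe set: the other one past the floor read 1036, 685 and 900, lowest in tumour 2, with tumour 3 at 0.833-fold of tumour 1. Psmd1, the gene of a large scaffold subunit, had 1597, 1223 and 1903 (10.63 ± 0.29) and was lowest in tumour 2. Psmd2, the other scaffold subunit gene, had 2345, 2249 and 2057, a range of 1.24-fold.

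Most lid genes differed little, and Psmd7 was the exception. Its intensities were 763, 355 and 1203 in tumours 1, 2 and 3 (9.52 ± 0.84), the widest span of any member, with tumour 3 3.12-fold above tumour 2 and tumour 1 2.16-fold above it. Psmd7 encodes the partner of the lid's deubiquitinating enzyme. Psmd14, which encodes that enzyme, had intensities of 3116, 2330 and 2287 (11.34 ± 0.29), highest in tumour 1 with tumours 2 and 3 close. The partners thus differed in tumour 3, where Psmd7 was highest and Psmd14 lowest. Both other probe sets of Psmd7 were below the floor, and with the mean of all its probe sets the difference was 0.58 in place of 1.64 (log2). Psmd3 (1529, 1077 and 1143) was likewise highest in tumour 1. Psmd12 (1051, 1169 and 1666) was the only subunit gene lowest in tumour 1. Psmd8 differed least, 1.15-fold. In their brightest probe sets Psmd6, Psmd11 and Psmd13 had ranges of 1.35-fold, 1.20-fold and 1.32-fold, all highest in tumour 1.

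The base assembly chaperone genes were split. Psmd10, which encodes gankyrin, a protein known to bind the retinoblastoma protein and MDM2, had intensities of 277, 263 and 513 (8.59 ± 0.49), 1.89-fold higher in tumour 3 than in tumour 2. Psmd9 had 444, 314 and 393 (8.75 ± 0.27), and Psmd5 had 759, 903 and 802 (9.77 ± 0.09), highest in tumour 2. The recombination gene Psmc3ip had 280, 246 and 439 (8.50 ± 0.41), with tumour 3 highest.

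Core and regulatory particle genes were compared by their median shift in each tumour. Core genes (14 past the floor) had shifts of 0.08, -0.20 and 0.01 (log2) in tumours 1, 2 and 3, and regulatory particle genes (17) had 0.19, -0.08 and -0.11. The core minus the regulatory particle was -0.11, -0.12 and 0.12. These differences were smaller than the spread among genes of either particle, whose SD over genes was 0.18, 0.23 and 0.28 for the core and 0.15, 0.24 and 0.28 for the regulatory particle. With the mean of all probe sets of a gene, those under the floor included, the differences were -0.02, -0.02 and -0.01. With probe sets left out that have a letter before the ending of the ID, they were -0.06, -0.08 and 0.07. Their size thus depended on the choice of probe set in all 3 tumours. The difference in tumour 1 was 0.04 without tumour 3.

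Both particles were higher in tumour 1 than in tumour 2, by medians of 1.31-fold for the core (14 of 14 genes) and 1.30-fold for the regulatory particle (15 of 17). Tumours 1 and 3 were closer. Tumour 1 was above tumour 3 in 7 of 14 core genes, median 1.01-fold, and in 12 of 17 regulatory particle genes, median 1.15-fold; over all genes tumour 1 was above tumour 3 in 55.9%, median 1.06-fold. The difference between the particles in this count was not tested. The order tumour 1, then 2, then 3 was shown by 4 core and 7 regulatory particle genes (18.8% of all genes), and the order 3, then 1, then 2 by 7 core and 4 regulatory particle genes (15.4% of all genes). These comparisons share arrays, use the brightest probe set of each gene and are not independent.

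**Figure D2:**
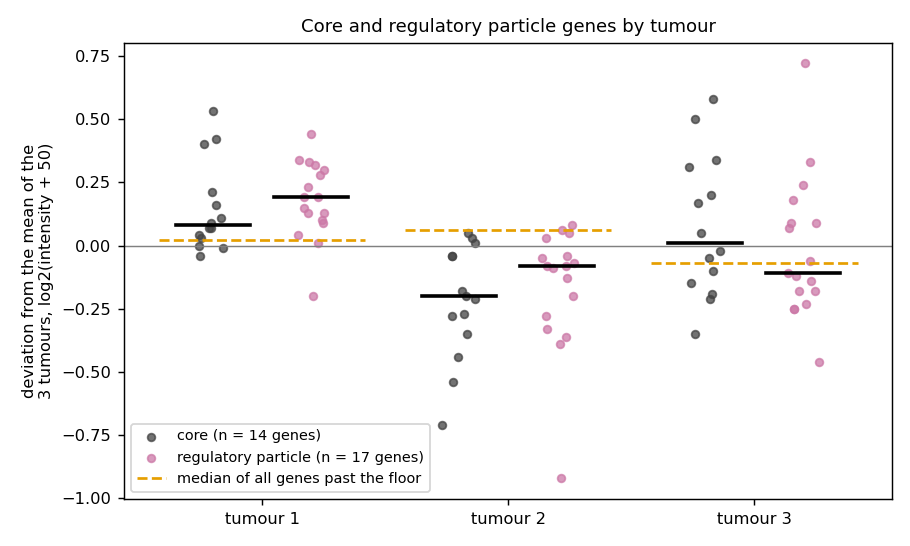
Deviation of log2(intensity + 50) from the mean of the 3 tumours (y axis) by tumour (x axis), with a point per gene for the core (14 genes, dark) and the regulatory particle (17 genes, pink); black bars are medians over genes and dashed lines the medians of all 6951 genes past the floor. The medians of both particles are below the dashed line in tumour 2 (-0.20 and -0.08 against 0.06), and the points of the particles overlap in every tumour.

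A promoter motif was found mostly in regulatory particle genes. The letters CCGGAAG, a binding motif of ETS family transcription factors such as GABPA, were found on either strand in the promoters of 9 of 14 regulatory particle genes and 1 of 11 core genes, Psma6. Psmc3ip held them too, so that they were in 37.9% of the 29 members with a promoter sequence, against 23.1% of array genes past the floor and 9.93% of all 27025 genes with one. The regulatory particle holders were Psmc1, Psmc2, Psmc6, Psmd2, Psmd4, Psmd6, Psmd11, Psmd12 and Psmd13. These genes did not all share an order of tumours. Psmd2, Psmd4, Psmd6, Psmd11 and Psmd13 had the order tumour 1, then 2, then 3 (18.8% of all genes). Psmc1 and Psmc2 had the order 3, then 1, then 2 (15.4% of all genes). Psmc6 was highest in tumour 2, with tumour 1 minus tumour 2 at -0.04 (log2), and Psmd12 was highest in tumour 3 and lowest in tumour 1. These orders are those of the brightest probe sets. In Psmc2, Psmc6, Psmd4, Psmd6, Psmd11 and Psmd13 a further probe set past the floor gave another order, though in Psmd11 another one kept it. The remaining holders had no further probe set past the floor. A stretch around the match is given for an ATPase, a scaffold, a ubiquitin receptor and a pair of lid genes, along the gene's strand, with the match in capitals (CTTCCGG is the same motif on the other strand). They lie at chr12:100110154-100110200 (Psmc1, plus strand), chr16:20651606-20651651 (Psmd2, plus), chr3:95042713-95042759 (Psmd4, minus), chr14:14120964-14121010 (Psmd6, minus) and chr11:107479491-107479527 (Psmd12, plus) of GRCm38.p6.
Psmc1: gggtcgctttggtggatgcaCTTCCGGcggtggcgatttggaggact
Psmd2: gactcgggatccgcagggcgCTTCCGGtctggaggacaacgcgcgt
Psmd4: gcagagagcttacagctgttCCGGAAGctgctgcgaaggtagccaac
Psmd6: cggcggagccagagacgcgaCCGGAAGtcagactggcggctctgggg
Psmd12: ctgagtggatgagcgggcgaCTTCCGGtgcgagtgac
The matches began 28 bases before the gene start in Psmc1, 26 in Psmd2, 125 in Psmd4, 45 in Psmd6 and 17 in Psmd12. A match describes the letters of the window and shows no binding.

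Probe sets of the same gene repeated the sign between tumours 1 and 2 more often than the signs between tumour 3 and the others. The members had 65 probe sets, of which 49 reached the floor, and 12 members had 14 further probe sets there beside the brightest. Of these 14, 11 repeated the sign of the difference between tumours 1 and 2, 8 that between tumours 3 and 1, and 6 that between tumours 3 and 2. Tumour 1 was above tumour 2 in the brightest probe set of 32 of 35 members, so that sign could repeat often without agreement gene by gene. Psmc4 disagreed most: its brightest probe set read 1273, 845 and 1188 in tumours 1, 2 and 3, and its second 385, 301 and 1866, so that tumour 3 was 4.11-fold above tumour 1 in the second and 0.877-fold in the first. Tumours 1 and 2 kept their order in both readings of Psmc4.

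In Psmb4 the second probe set (987, 1083 and 2117) placed tumour 3 1.91-fold above tumour 1, and in Psmd6 (730, 808 and 1409) 1.75-fold above, where the brightest placed it at 0.891-fold and 0.739-fold. Psma5 went the other way: its brightest probe set read 1924, 1707 and 2453 and its second 2217, 1527 and 1383. In all, 9 of the 14 further probe sets read tumour 3 higher relative to tumour 1 than the brightest did. The place of tumour 3 in these genes thus depended on the probe set. The part of RNA quality, or of transcripts that only some probe sets read, was not tested.

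**Figure D3:**
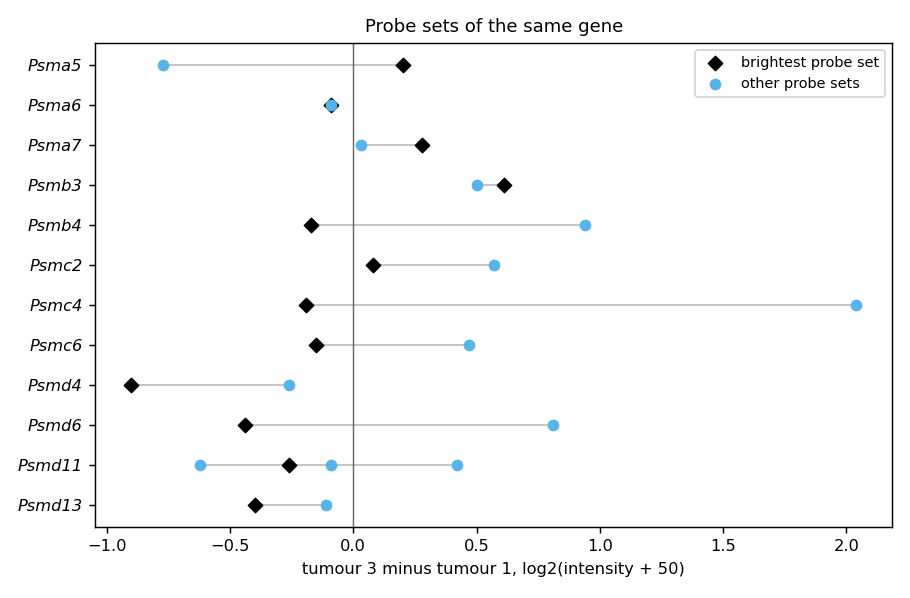
Difference of log2(intensity + 50) between tumour 3 and tumour 1 (x axis) in every probe set that reached the floor, for the 12 members with several such probe sets; diamonds are the brightest probe set and circles the others. Psma6, Psma7 and Psmb3 agree closely, whereas the probe sets of Psmc4 lie at -0.19 and 2.04.

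The immune subunits, which replace the constitutive proteolytic subunits after interferon signalling, had a median range of 2.23 (log2), against 0.45 for the constitutive beta ring. In all 3 genes tumour 1 had the highest value and tumour 3 the lowest. Psmb8 had intensities of 2913, 1302 and 435 in tumours 1, 2 and 3, Psmb9 had 1344, 447 and 251 and Psmb10 had 1102, 363 and 313. Tumour 1 was above tumour 3 by 6.23-fold in Psmb8 against 1.85-fold in its counterpart Psmb5, and by 3.24-fold in Psmb10 against 1.29-fold in Psmb7. In the third pair the directions were opposite: Psmb9 was 4.68-fold higher in tumour 1 than in tumour 3, and Psmb6 was 1.19-fold higher in tumour 3. Macrophage markers also had their lowest values in tumour 3 (10 of 10 genes against 44.1% of all genes, summed intensity 25005, 24607 and 13132), with none listed at 0 in every tumour. The T and NK cell markers were all below the floor (0 of 7 passed, summed intensity 165, 157 and 99). The part of these cells in the immune subunit values was not tested.

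**Figure D4:**
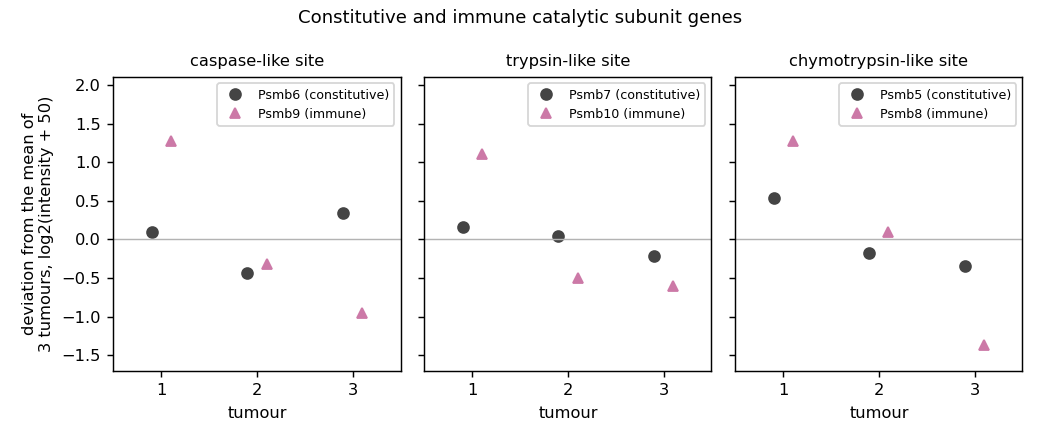
Deviation of log2(intensity + 50) from the mean of the 3 tumours (y axis) by tumour (x axis) for each constitutive proteolytic subunit gene (circles) and its immune counterpart (triangles), a panel per site. The immune genes span 2.23, 1.70 and 2.64 (log2) for Psmb9, Psmb10 and Psmb8, the constitutive genes 0.78, 0.36 and 0.89 for Psmb6, Psmb7 and Psmb5.

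Genes that assemble the core had the low tumour 2 of the alpha ring, with a median range of 0.89 (log2) against 0.60 for that ring. All 5 measured were lowest in tumour 2 (27.1% of all genes), with a median shift of -0.58 (log2) there. At least 2-fold differences were seen in 2 of 5 (24.8% of all genes). Pomp, the maturation factor of the core, had intensities of 2236, 1169 and 2905 and a range of 2.31-fold. The chaperone gene Psmg4 had 485, 161 and 321, a 2.70-fold range, and Psmg1 differed least, 1.48-fold. Sem1, which encodes the smallest lid subunit and lies outside the symbol rule, resembled Psma7 and Psmd7: its intensities were 2448, 1385 and 3351, a range of 2.24-fold. In Pomp and Sem1, as in the wide members, tumour 2 was lowest and tumour 3 highest. Paaf1 and the ubiquitin receptor gene Adrm1 were not analysed here.

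Of the other genes that bind the regulatory particle, 4 of 7 (Sem1 included) were lowest in tumour 2, against 27.1% of all genes. After Sem1, the ubiquitin ligase gene Ube3c (504, 310 and 315) had the widest range, 1.64-fold, and the deubiquitinase gene Uchl5 the narrowest, 1.10-fold. The activators went with the immune subunits in part. Psme1 had intensities of 2699, 1832 and 1333, a 2.13-fold range, and Psme3, the nuclear activator gene, had 504, 416 and 199. In both, tumour 1 had the highest and tumour 3 the lowest value, whereas Psme4 (1204, 1665 and 1855) had the opposite order. The inhibitor gene Psmf1 had 409, 279 and 278, highest in tumour 1.

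Ubiquitin shuttles and related factors had the narrowest median range of these lists, 0.24 (log2) over 7 genes, and 0 of 7 at least 2-fold apart (24.8% of all genes). Vcp, the segregase that feeds substrates to the proteasome, measured 11.92, 11.91 and 11.92. The shuttle gene Rad23b, with intensities of 1197, 927 and 1757, had the widest range, 1.80-fold, followed by Ubqln2, 1.45-fold. Among regulators of proteasome gene transcription, Nfe2l1 had intensities of 956, 895 and 533 and Nfe2l2 had 828, 740 and 479. Both were lowest in tumour 3 (44.1% of all genes). The part of these regulators in the subunit values was not tested. Ngly1, whose product helps to activate NFE2L1, had 159, 487 and 176, highest in tumour 2 with a 2.42-fold range. Nfe2l3, a relative of NFE2L1, was lowest in tumour 2 (169, 84 and 241). Mafg differed least in this list, 1.18-fold.

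**Figure D5:**
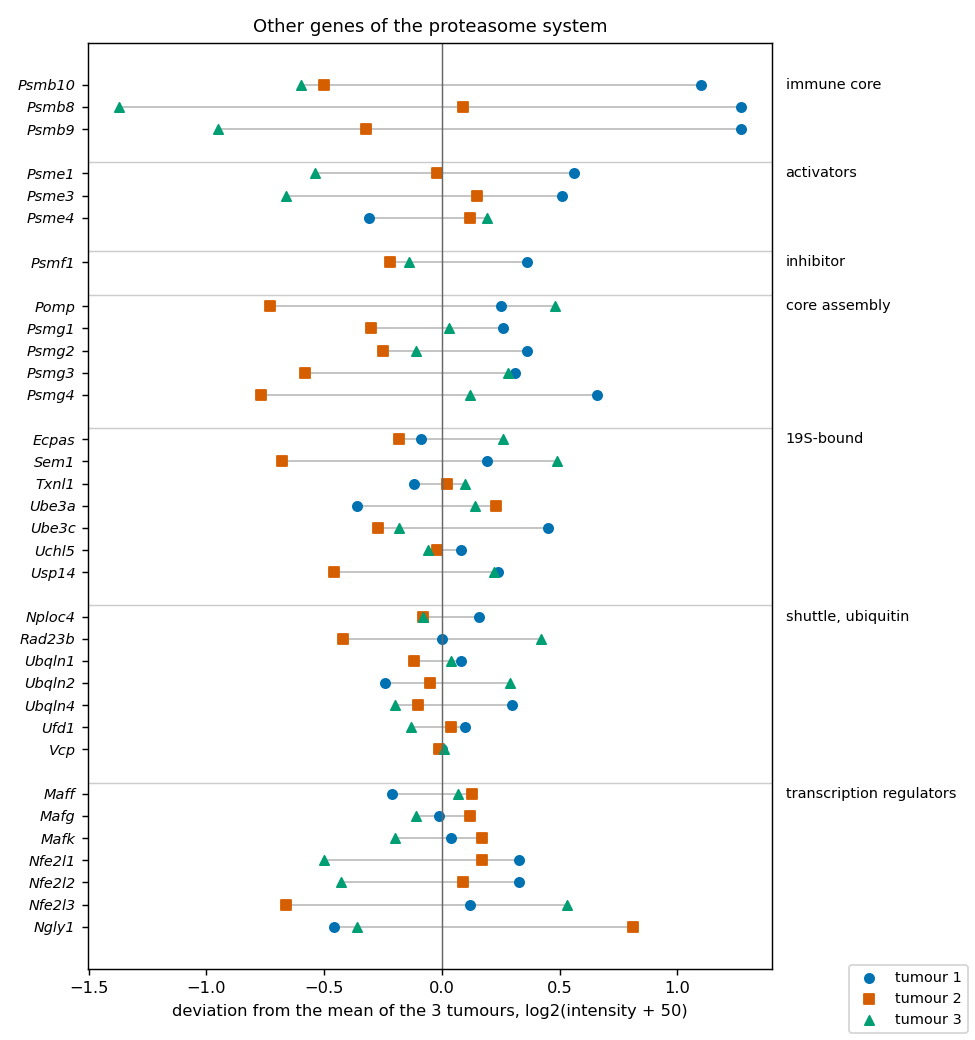
Deviation of log2(intensity + 50) from the mean of the 3 tumours (x axis) for 33 other genes of the proteasome system, grouped by role; circles are tumour 1, squares tumour 2, triangles tumour 3, and each grey line spans the range. The immune core genes have the widest spans, all 5 core assembly genes have tumour 2 at the left end, and Vcp has a range of 0.01.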

How the data were processed

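The deposited values were whole-number intensities, 1 for each probe set in each tumour, on a linear scale as the values show. The authors' summary, background correction and scaling of these intensities are not given in the sources used here. Total RNA came from an RNAzol extraction and was copied into biotinylated cRNA, per the labels. Of 22690 probe sets, 64 controls were left out, and 20380 named 1 gene in the platform annotation. The 2% trimmed means of the arrays differed by more than 5%, so they were quantile normalized; 50 was added before log2. A gene was represented by its brightest probe set on average. Genes passed a low-signal floor at the median of all probe sets (6951 of 12393). Samples form 1 group without controls, so no test was made and shifts, ranges and orders are descriptions beside all genes past the floor. Replicate numbers follow accession order. The calculation was tested on simulated data. Members and lists were chosen with earlier results of these data known. In each role group the 3 widest and the narrowest member, the proteolytic genes, members at least 2-fold apart and those below the floor were named with values; from other lists the 2 widest and the narrowest, or every gene of a shorter list; Nfe2l1, Nfe2l2, Psmc6, Psmd12 and further examples were added after their values were seen. Motifs were searched in RefSeq promoters of build GRCm38.p6. Alternatives changed the normalization, the offset (16 and 100), the probe set choice, the floor and the tumours used. Python 3.11.15, numpy 2.4.6, pandas 2.3.3 and matplotlib 3.10.9 were used.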

Additional observations from a re-analysis of the deposited data

How the results depend on the processing

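The shifts of the core and of the regulatory particle kept their sign in tumours 1 and 2 under all 9 alternatives other than leaving out a tumour, from 0.04 to 0.13 and -0.28 to -0.15 (log2) for the core and from 0.13 to 0.19 and -0.20 to -0.08 for the regulatory particle. Tumour 1 was above tumour 2 in 28 of 31 genes with the values as deposited, 30 of 31 with array medians subtracted, 27 of 31 with the mean of all probe sets and 22 of 22 without suffixed ones. Counting the assembly chaperones with the regulatory particle was chosen after seeing the data, and it could not change the shift of the core. The floor at the 75th percentile kept the same 31 genes, and leaving out the floor added only Psma8. These alternatives therefore could change the shifts little or not at all. In tumour 3 the results depended on the probe sets. The mean of all probe sets took in those under the floor. With the mean of all probe sets of a gene, the regulatory particle shifted by 0.06 and the beta ring by 0.17 in tumour 3, the non-ATPase base by -0.15 and the assembly chaperones by -0.06 in tumour 2, and 4 members were lowest in tumour 1. With suffixed probe sets (a letter before the ending of the ID) left out, 25 members remained past the floor. The alpha ring then shifted by 0.34 in tumour 1, the beta ring by 0.17 in tumour 3, the non-ATPase base by -0.14 and 0.03 in tumours 2 and 3 and the chaperones by -0.10 in tumour 2, and 1 member was highest in tumour 2, 1 lowest in tumour 1 and 6 lowest in tumour 3. With array medians subtracted 1 member was highest in tumour 2, and with a floor at the 75th percentile the chaperones shifted by 0.11 in tumour 2. For single genes, 13 of 244 values moved by more than the SD over tumours. The alternatives for the floor and for the chaperone grouping could not change a single gene's value, so their values in this count were unmoved by design. Leaving out a tumour was counted only for genes whose highest and lowest tumours both stayed. Those values could change only through the renewed normalization and choice of probe set, so they say little about stability. Of the differences of at least 2-fold, in Psma7, Psmb3 and Psmd7, 0 turned their sign. Smaller differences did turn, among them Psmb1 to -0.06 (log2) with the values as deposited. Psmc1 turned to -0.02 with the mean of all probe sets and Psmc6 to -0.14 without suffixed ones. The turns of Psmc1 and Psmc6 drew on a probe set under the floor. Which members passed 2-fold did change: with the mean of all probe sets Psmd7 fell to 0.58 (log2) and Psmc4 entered at 1.45, with an offset of 16 Psmd10 entered, and without tumour 3 Psmb3 was lost.

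Leaving out a tumour changes what highest, lowest and mean refer to. In tumour 2 the shift then ran from -0.22 to -0.05 for the core, -0.19 to 0.03 for the beta ring, -0.20 to 0.12 for the non-ATPase base and -0.18 to -0.08 for the chaperones. In tumour 1 it ran from -0.04 to 0.28 for the alpha ring, and the core minus the regulatory particle ran from -0.10 to 0.04. Members at least 2-fold apart numbered 0 to 3 and at least 1.5-fold apart 6 to 7. Members highest in tumours 1, 2 and 3 numbered 20 to 32, 3 to 13 and 15 to 22, and members lowest 3 to 15, 22 to 32 and 13 to 20. No paired analysis was possible because the samples form 1 group.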

Other observations

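Ranges of neighbouring genes were read beside the members at least 2-fold apart. The measured genes next to Psma7 in the RefSeq gene order, Lsm14b and Mtg2, had ranges of 1.45-fold and 1.18-fold; both were lowest in tumour 2. Next to Psmb3, Pcgf2 had a 2.19-fold range, highest in tumour 1 and lowest in tumour 3, and Lasp1 one of 1.41-fold. Next to Psmd7, Wwp2 and Zfhx3 had ranges of 1.61-fold and 1.56-fold and neither was lowest in tumour 2. Farther out, Stac2, the third measured gene from Psmb3, had a 2.26-fold range and Nqo1, 2 genes from Psmd7, one of 2.37-fold, both lowest in tumour 1. The adjacent genes were chosen by position, whereas Stac2 and Nqo1 were named for their ranges among up to 3 measured genes on each side. Over all genes past the floor, 24.8% were at least 2-fold apart. Of the genes farther out, only Prelid3b near Psma7, Epop near Psmb3 and Hp near Psmd7 were lowest in tumour 2 (27.1% of all genes). Their ranges were 1.39-fold, 1.20-fold and 1.70-fold.

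The CCAAT box, a motif bound by the factor NF-Y, was found on either strand in the promoters of 12 of 29 members (41.4%), against 42.9% of array genes past the floor. It was in 10 of the 18 members lowest in tumour 2 and in 2 of the 11 others. CCGGAAG was in 4 of those 18 and 7 of those 11. These splits by tumour order count Psmc3ip, which held both motifs and was lowest in tumour 2. They were seen after the values and were not tested.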
